A study of Mus musculus with 5 samples.

Results

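The report follows 10 genes of antibody-secreting cells and of IgA transport in whole colon: Jchain, Xbp1, Sdc1, Prdm1, Irf4, Mzb1, Tnfrsf17, Pou2af1, Derl3 and Pigr. They were chosen by name, and every probe matched to them was taken, 16 probes in all. All 10 genes passed the filter on dim probes, out of 32917 features tested, and each of the 16 probes passed the scanner's test for signal above background in every mouse. The samples were whole colon of wild-type C57BL/B6 mice, 8 weeks of age. The Control group held 2 mice, called untreated in the study. In the NT-3N group 3 mice were given the IL-11 receptor (IL-11R) agonist NT-3N intravenously, and colon was taken 3 hr later. Per the methods the agonist is a modified human IL-11. The series text gives its amount as 10 mg, whereas the methods give micrograms. The age comes from the paper's legend, since the labels name neither age nor sex. They name no vehicle injection either, so the injection and the agonist cannot be told apart.

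The intestine is the main site of IgA production. Plasma cells of the lamina propria assemble IgA into dimers with the joining chain, and the polymeric immunoglobulin receptor of the epithelium carries these dimers into the lumen. B cells become plasma cells as IRF4 and Blimp-1 (encoded by Prdm1) displace the B cell programme. XBP1 then expands the endoplasmic reticulum (ER) for antibody secretion, where MZB1 and Derlin-3 (encoded by Derl3) serve folding and the removal of misfolded protein. BCMA (encoded by Tnfrsf17) receives survival signals and syndecan-1 (encoded by Sdc1) marks the surface of these cells. The same names are not all private to plasma cells, since Xbp1 and Sdc1 are also expressed by epithelium and Irf4, Prdm1 and Pou2af1 by other lymphocytes.

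Promoters of 9 of the 10 genes, all but Mzb1, were taken from the RefSeq table of build GRCm38.p6. They were searched on both strands, over 250 bases before the start site and 50 after it, for 5 motifs. An ER stress response element (CCAAT, any 9 bases, CCACG), which serves the unfolded protein response, was found in 0.119% of 32851 promoters and in that of Derl3 alone of the 9. An E-box (CACGTG) was found in 7.15% and in those of Derl3 and Pigr, a palindrome that reads the same on both strands. A STAT site (TTCNNNGAA), the kind of element through which the IL-11 receptor can act, was found in 8.3% and in that of Pigr, 40 to 48 bases after the start site. An interferon-type repeat (GAAA, any 2 bases, GAAA) was found in 3.44% and in that of Tnfrsf17, and the octamer of Oct factors and Pou2af1 (ATGCAAAT) in 1.74% and in none of the 9. A match describes the letters only. The sequences before the start site are shown for the 3 genes with a match. Capitals mark the E-box and the ER stress response element, which lie apart from each other in Derl3, the E-box in Pigr and the repeat in Tnfrsf17. All 3 lie on the plus strand, Derl3 at chr10:75893148-75893397, Pigr at chr1:130826434-130826683 and Tnfrsf17 at chr16:11313559-11313808.
Derl3: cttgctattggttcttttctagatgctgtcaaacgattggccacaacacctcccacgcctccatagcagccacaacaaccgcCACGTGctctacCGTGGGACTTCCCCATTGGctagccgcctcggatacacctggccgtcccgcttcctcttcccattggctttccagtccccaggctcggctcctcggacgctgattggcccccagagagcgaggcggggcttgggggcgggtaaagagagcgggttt
Pigr: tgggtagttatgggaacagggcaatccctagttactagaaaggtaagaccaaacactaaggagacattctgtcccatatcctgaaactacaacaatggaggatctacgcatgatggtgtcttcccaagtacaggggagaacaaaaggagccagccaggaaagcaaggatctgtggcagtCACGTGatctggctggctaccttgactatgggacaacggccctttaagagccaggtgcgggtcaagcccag
Tnfrsf17: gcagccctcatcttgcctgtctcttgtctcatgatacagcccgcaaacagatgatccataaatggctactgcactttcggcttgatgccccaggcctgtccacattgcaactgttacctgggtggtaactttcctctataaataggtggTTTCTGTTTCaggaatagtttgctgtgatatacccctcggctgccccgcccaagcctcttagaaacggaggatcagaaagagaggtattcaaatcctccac

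RNA of each mouse was hybridized to 1 single-colour Agilent array, and the 5 arrays shared 1 slide and 1 scan. Of 56605 probes, 70.6% to 73.1% per array exceeded background clearly, and 0 spots were saturated. Epithelial and smooth muscle markers were well above background on all 5 arrays, 15 of 15 and 10 of 10, as were 14 of 15 B cell markers. Control replicate 2 stood apart in B cell markers. It held the lowest value of 13 of 15 B cell markers and of 4 of 10 T cell markers, against 19.2% of all features. Pairs of arrays correlated at 0.978 to 0.992 over features, and features are not replicates. The lowest values were those of Control replicate 1, 0.978 to 0.980 with the NT-3N arrays and 0.982 with Control replicate 2. Control replicate 2 correlated at 0.985 to 0.988 with the NT-3N arrays, more than with Control replicate 1.

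None of the 10 genes differed between NT-3N and Control by limma at an adjusted p under 0.05, where 0.143% of all features did, and none of their 16 probes did in the fit of every probe, where 0.168% of probes did. At an unadjusted p under 0.05, 1 of the 10 was higher in NT-3N, Pou2af1, against 4.95% of all features, and none was lower, against 4.67% (9.62% in either direction). The local-pooled-error test named in the methods called 0 of the 10 as well, with 0 at an unadjusted p under 0.05. Log2 differences, NT-3N minus Control, ran from -0.098 for Derl3 to 0.68 for Pou2af1, with 7 higher and 3 lower, where 46.4% of all features were higher and 53.6% lower. Their median was 0.077, beside -0.019 over all features. Pou2af1 was also the sole member whose arrays did not overlap between the groups, where 28.4% of all features showed no overlap and 13.5% did so with NT-3N higher. In whole tissue, fewer cells of a type and less RNA per cell cannot be told apart. An exact permutation test over 5 arrays has 10 splits and cannot go below p = 0.1, the value it gave for Pou2af1.

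**Figure D1:**
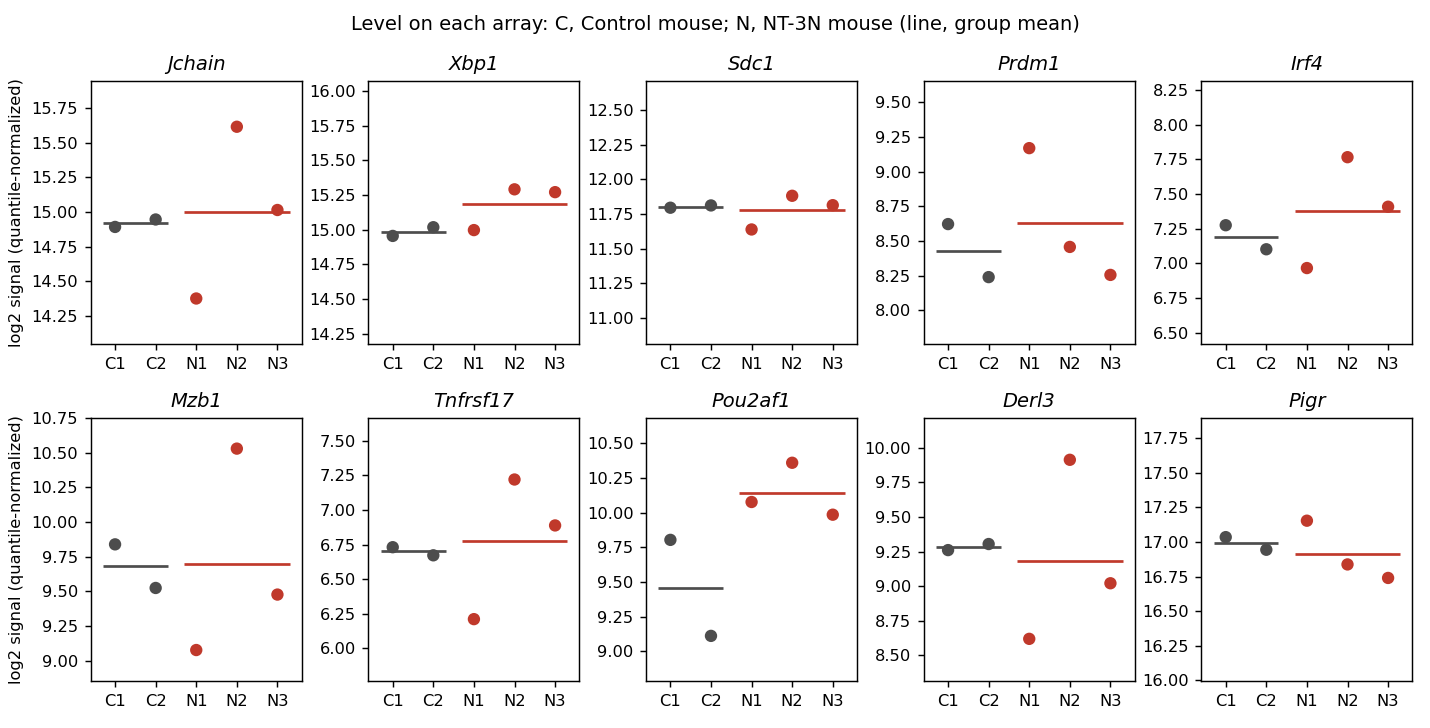
Log2 signal (y axis, quantile-normalized) of the 10 genes on each array, with Control mice as C1 and C2 and NT-3N mice as N1 to N3; lines are group means and every panel spans the same log2 range. Jchain, Mzb1, Derl3, Tnfrsf17 and Irf4 have their lowest point at N1 and their highest at N2, and only Pou2af1 separates the groups.

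Jchain, the joining chain of secreted IgA and IgM, had a log2 signal of 14.89 and 14.95 in the Control mice and 14.38, 15.62 and 15.02 in the NT-3N mice. The controls lay close together, between the NT-3N mice on either side. The group means were 14.92 ± 0.038 (SD, n = 2) and 15.00 ± 0.62 (SD, n = 3), and the log2 difference was 0.083 with a standard error of 0.32 (limma adjusted p = 0.95). The 95% interval of the ratio of NT-3N to Control was 0.616 to 1.82.

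Mzb1, an ER cochaperone of plasma cells and marginal zone B cells, had a log2 signal of 9.84 and 9.52 in Control and 9.08, 10.53 and 9.48 in NT-3N. Its highest and lowest values both fell in the NT-3N group, with a span of 2.74-fold, the widest of the 10 genes. The log2 difference between the groups was 0.013 with a standard error of 0.40 (limma adjusted p = 0.99). Derl3, a part of the machinery that withdraws misfolded proteins from the ER, read 9.26 and 9.30 in Control and 8.62, 9.91 and 9.02 in NT-3N. Again the controls were close together and the NT-3N mice spread around them, with a log2 difference of -0.098 and a standard error of 0.35 (limma adjusted p = 0.95). The ratio of NT-3N to Control had a 95% interval of 0.513 to 1.98 for Mzb1 and 0.518 to 1.69 for Derl3.

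Tnfrsf17 encodes BCMA, the receptor through which APRIL keeps plasma cells alive. Its log2 signal was 6.73 and 6.67 in Control and 6.21, 7.22 and 6.89 in NT-3N. NT-3N replicate 1 lay below both controls and the other NT-3N mice above them. The log2 difference was 0.071 with a standard error of 0.30 (limma adjusted p = 0.95), within the spread of the NT-3N mice of 0.51 (SD, n = 3).

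Among the transcription factors, Irf4 had a log2 signal of 7.28 and 7.10 in Control and 6.97, 7.77 and 7.41 in NT-3N on its brighter probe. The groups overlapped, and the log2 difference was 0.19 with a standard error of 0.24 (limma adjusted p = 0.83). Its other probe, read as log2 signal, gave 5.02 and 4.96 in Control and 4.99, 5.63 and 5.16 in NT-3N, so NT-3N replicate 2 was again the highest, but NT-3N replicate 1 was not the lowest. The log2 difference on that probe was 0.27 (adjusted p = 0.77 over 41590 probes by limma).

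Prdm1, whose product Blimp-1 shuts off the B cell programme, ran against some of the others on NT-3N replicate 1. It had a log2 signal of 8.62 and 8.24 in Control and 9.17, 8.46 and 8.26 in NT-3N, so its highest value was on NT-3N replicate 1, where Jchain, Mzb1, Derl3, Tnfrsf17 and Irf4 had their lowest. The log2 difference was 0.20 with a standard error of 0.28 (limma adjusted p = 0.85). Without NT-3N replicate 1 it was -0.075.

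Xbp1, the driver of ER expansion, read 14.96 and 15.02 in Control and 15.00, 15.29 and 15.27 in NT-3N on its brightest probe. NT-3N replicates 2 and 3 lay above the controls and NT-3N replicate 1 between them. The log2 difference was 0.20 with a standard error of 0.10 (limma adjusted p = 0.61), and the 95% interval of the ratio was 0.964 to 1.37. The other 2 probes gave log2 differences of 0.23 and 0.26 with adjusted p of 0.68 and 0.72 by limma, so all 3 probes pointed the same way, none past the threshold.

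Pou2af1, the B cell coactivator of Oct factors, had the widest difference between the groups. Its log2 signal was 9.80 and 9.11 in Control and 10.08, 10.36 and 9.98 in NT-3N, so every NT-3N mouse lay above both controls. The means were 9.46 ± 0.49 (SD, n = 2) and 10.14 ± 0.20 (SD, n = 3). The log2 difference was 0.68 with a standard error of 0.22, a ratio of 1.61-fold with a 95% interval of 1.11 to 2.33 (limma adjusted p = 0.43, and 0.021 unadjusted). Its adjusted p ran from 0.23 to 1 over 16 alternatives. The size depended on Control replicate 2. Without that array the log2 difference was 0.34 with an unadjusted p of 0.13 in limma, and without Control replicate 1 it was 1.03 with 0.0019. Control replicate 2 was also the array with the lowest value of 13 of 15 B cell markers. The exceptions were Cd22, lowest on NT-3N replicate 2, and Ms4a1, which encodes the B cell surface protein CD20 and was lowest on Control replicate 1. Ms4a1 had a log2 signal of 4.95 and 6.53 in Control and 9.54, 9.13 and 9.51 in NT-3N. Like Pou2af1 it separated the groups on every array, with a log2 difference of 3.65 and a standard error of 0.43 (limma adjusted p = 0.059), and it passed the threshold in 6 of 16 alternatives. Without Control replicate 2 its log2 difference was 4.44. The mean of 14 B cell markers, each centred on its own mean, was -1.41 there, 0.24 on Control replicate 1 and between 0.25 and 0.54 on the NT-3N arrays. Pou2af1 is expressed by B cells as well as plasma cells, and the part of B cell content in its difference was not tested.

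Sdc1 encodes syndecan-1, a heparan sulfate proteoglycan of plasma cells and of epithelium. On its brightest probe the log2 signal was 11.80 and 11.81 in Control and 11.64, 11.88 and 11.81 in NT-3N. The span over the 5 mice was 1.18-fold, the narrowest of the 10 genes, and the log2 difference was -0.026 with a standard error of 0.10 (limma adjusted p = 0.95). The other 2 probes gave -0.12 and -0.079, and on the former the lowest log2 signal was 7.10 on NT-3N replicate 3, below 7.40 on NT-3N replicate 1. The 95% interval of the ratio was 0.83 to 1.16.

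Pigr encodes the polymeric immunoglobulin receptor, which takes IgA dimers through the epithelial cell. Its log2 signal was 17.03 and 16.94 in Control and 17.15, 16.84 and 16.74 in NT-3N on its brighter probe. The controls lay inside the range of the NT-3N mice, with NT-3N replicate 1 above them and the other 2 below. The log2 difference was -0.079 with a standard error of 0.13 (limma adjusted p = 0.86), and the 95% interval of the ratio was 0.768 to 1.17. The other probe read 11.64 and 11.45 in Control and 11.65, 11.50 and 11.56 in NT-3N, with a log2 difference of 0.021 (limma adjusted p = 0.96). Of the 4 genes with more than 1 probe, Pigr was the sole one whose probes differed in sign, and both intervals held 0.

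**Figure D2:**
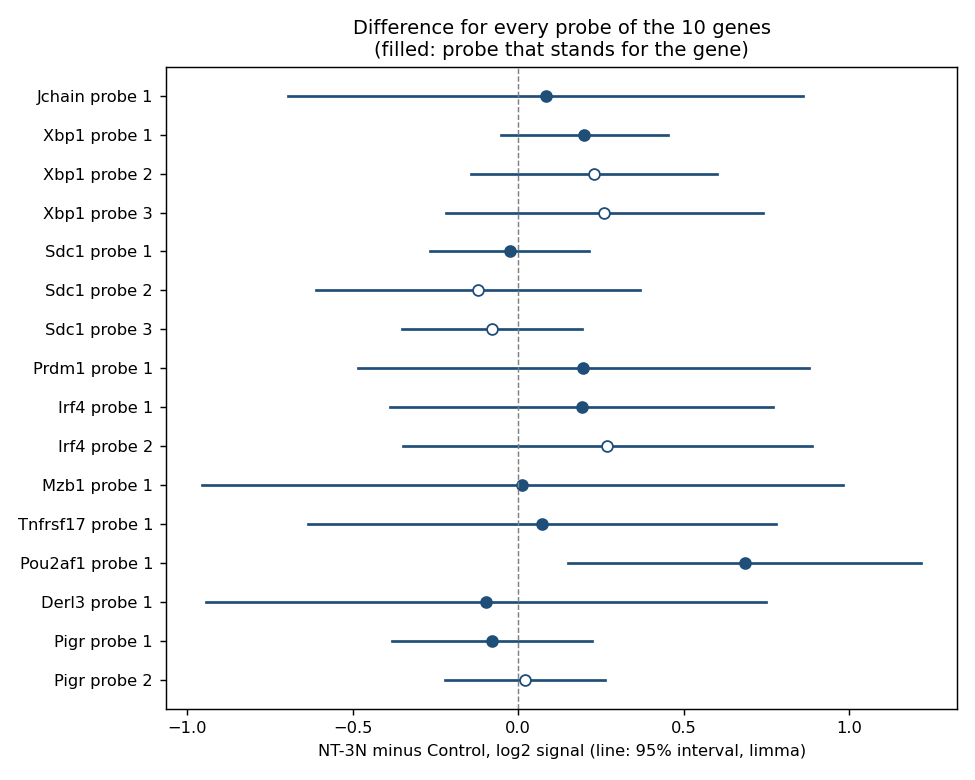
Log2 difference, NT-3N minus Control (x axis), for each of the 16 probes of the 10 genes with its 95% interval from limma; filled points are the probe that stands for the gene. All intervals but that of Pou2af1 cross 0, and the widest are those of Mzb1, Derl3 and Jchain.

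The median span of the 10 genes over the 5 arrays was 0.97 on the log2 scale, beside 0.49 over all features. Jchain, Mzb1, Derl3, Tnfrsf17, Irf4 and Sdc1 had their lowest value on NT-3N replicate 1 and their highest on NT-3N replicate 2. These are 6 of the 10, each on its brightest probe, and 4.93% of all features had that pair of extremes. For Irf4 and Sdc1 it depended on the probe. The ratio of NT-3N replicate 2 to NT-3N replicate 1 was 2.74-fold for Mzb1, 2.45-fold for Derl3, 2.36-fold for Jchain, 2.01-fold for Tnfrsf17, 1.74-fold for Irf4 and 1.18-fold for Sdc1. Both mice belonged to the same group, so this spread is not a difference between treatments, and it enters the standard errors given above.

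Genes outside the 10 were examined for the same pair of extremes. It was found in 0 of 19 further plasma cell genes, in 1 of 26 genes of the ER and in 3 of 23 genes of immunoglobulin receptors and transport. In a list of IgA switching, homing and survival signals they were 2 of 19. One was Ccr10, the homing receptor of IgA plasma cells for CCL28 of the colonic epithelium, with a log2 signal of 7.25 and 7.15 in Control and 6.51, 7.75 and 7.29 in NT-3N, a ratio of 2.37-fold between NT-3N replicates 2 and 1. The other was Itga4, the α4 chain of the gut homing integrin, with 1.63-fold. No gene of 15 B cell, 10 T cell, 10 smooth muscle or 8 plasmacytoid dendritic cell markers showed it. Of 10 macrophage and dendritic cell markers 4 did, Adgre1 with 1.62-fold and the complement genes C1qa, C1qb and C1qc with 1.33-fold to 1.47-fold. The mean of the 10 macrophage and dendritic cell markers was -0.21 on NT-3N replicate 1 and 0.23 on NT-3N replicate 2, each centred on its own mean. The mean of 17 further plasma cell genes, centred likewise, was also lowest on NT-3N replicate 1 (-0.083) and highest on NT-3N replicate 2 (0.13). By the lowest value alone, NT-3N replicate 1 held that of 15 of 26 genes of the ER, 6 of 10 smooth muscle markers and 7 of 19 further plasma cell genes. It held that of 25.6% of all features, of 0 of 15 B cell markers and of 1 of 10 T cell markers. What made NT-3N replicates 1 and 2 differ was not tested.

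Of 15 epithelial markers 3 had this pair of extremes, Cdh1, Krt18 and Krt19, with at most 1.25-fold. The mean of 15 epithelial markers, each centred on its own mean, ran from -0.068 on NT-3N replicate 3 to 0.068 on Control replicate 1. Pigr had its highest value on NT-3N replicate 1 and its lowest on NT-3N replicate 3. The mean of 10 smooth muscle markers was 0.22 and 0.27 on the Control arrays and -0.30, -0.064 and -0.12 on the NT-3N arrays, so these markers were lower on every NT-3N array by their mean. The part of this shift in the values of the 10 genes was not tested.

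**Figure D3:**
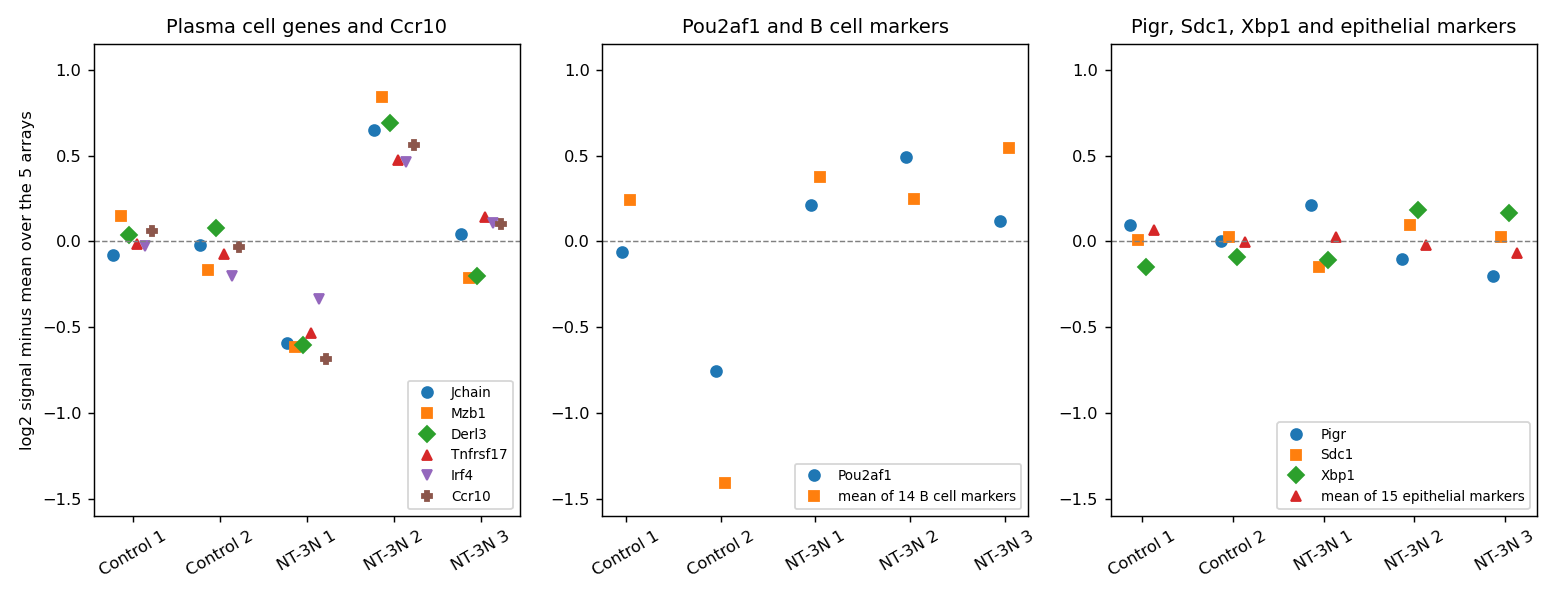
Log2 signal on each array minus the gene's mean over the 5 arrays (y axis), for plasma cell genes and Ccr10 on the left, Pou2af1 and the mean of 14 B cell markers in the middle, and Pigr, Sdc1, Xbp1 and the mean of 15 epithelial markers on the right. The left panel holds only genes that are lowest on NT-3N 1 and highest on NT-3N 2. Not drawn there are Prdm1, which is highest on NT-3N 1, and the further plasma cell genes, of which 0 of 19 had this pair of extremes. Pou2af1 and the B cell mean are lowest on Control 2, where the B cell mean is -1.41 (it includes Ms4a1, which was lowest on Control 1).

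In a list of 20 further plasma cell genes 19 were tested, 7 higher and 12 lower, with a median log2 difference of -0.042 and 0 called by limma. At an unadjusted p under 0.05, 1 was higher and 2 were lower, beside 4.95% and 4.67% of all features. Cd38, an ectoenzyme of plasma cells and many other cells, came nearest, with a log2 signal of 11.60 and 11.67 in Control and 12.42, 12.41 and 12.25 in NT-3N. Every NT-3N mouse lay above both controls, as in 13.5% of all features. The log2 difference of Cd38 was 0.73 with a standard error of 0.091 (limma adjusted p = 0.072). It passed the threshold in 3 of 16 alternatives, with adjusted p from 0.013 to 0.49. Ly6k had a log2 difference of 0.70 (limma adjusted p = 0.65) and Cav1, a caveolar protein that is abundant in muscle and endothelium too, one of -0.55 (limma adjusted p = 0.32). No probe was matched to the 12 immunoglobulin constant region genes on the list, among them Igha, Ighm and Igkc, which are not analysed here.

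Genes of the ER showed small differences. Of 26 genes of folding, export and the unfolded protein response 6 were higher and 20 lower, with a median log2 difference of -0.083, and limma called 0. At an unadjusted p under 0.05, 2 were higher and 2 lower, beside 4.95% and 4.67% of all features. The largest differences were those of Ddit3, the stress factor CHOP, with -0.37, of the chaperone Calr with -0.31 and of the stress sensor Atf6 with 0.30, at adjusted p of 0.35, 0.57 and 0.43 in limma. Ern1, whose product splices Xbp1 mRNA, had a log2 difference of -0.18, the chaperone gene Hspa5 one of -0.055 and the XBP1 target Dnajb9 one of 0.11, with adjusted p of 0.65, 0.92 and 0.75 in limma. Whether a probe tells spliced from unspliced Xbp1 is not given in the sources used here.

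Of 22 genes for IgA switching, homing and survival 19 were tested, 8 higher and 11 lower, with a median of -0.019 and 0 called by limma. At an unadjusted p under 0.05, 1 was higher and 0 were lower, beside 4.95% and 4.67% of all features. The higher gene was Il6, a cytokine that supports IgA plasma cells, which exceeded background on 0 of the 2 Control arrays and 2 of the 3 NT-3N arrays. It passed the filter on dim probes through the NT-3N arrays alone, so its p (limma adjusted p = 0.13) cannot be read as support. With a floor under Control, the NT-3N mean exceeded Control 2.72-fold. For this ratio a Control array counts as the dimmest signal still above background, or as its own reading where that is brighter. The NT-3N arrays kept their own readings, also the one not above background. The survival factor Tnfsf13b, which encodes BAFF, had a log2 difference of 0.20. The others were Cxcl12 with -0.054, the chemokine gene Ccl28 with -0.20, its receptor gene Ccr10 with -0.019, the vascular addressin Madcam1 with 0.46, its ligand chain Itgb7 with 0.14, Cxcr4 with 0.60 and Aldh1a2, an enzyme of retinoic acid synthesis, with -0.45. Their adjusted p lay at 0.63 or above in limma. Tnfsf13 had no matched probe and is not analysed here.

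Among 23 genes of immunoglobulin receptors, transcytosis and the control of Pigr, 15 were higher and 8 lower, with a median log2 difference of 0.056 and 0 called by limma. At an unadjusted p under 0.05, 3 were higher and 0 lower, beside 4.95% and 4.67% of all features. Tnfrsf1a, a receptor of TNF, which raises Pigr in cultured epithelium, had a log2 signal of 12.57 and 12.55 in Control and 12.98, 13.21 and 13.24 in NT-3N, a difference of 0.58 with a standard error of 0.10 (limma adjusted p = 0.15). The others were the endotoxin receptor gene Tlr4 with 0.38 and the adaptor gene Myd88 with 0.34, at adjusted p of 0.36 and 0.28. Fcgrt, the neonatal Fc receptor for IgG, had a log2 difference of -0.13 (limma adjusted p = 0.76). Fcmr, the IgM receptor of B cells, had one of 1.24 with a standard error of 0.95 (limma adjusted p = 0.72), and its log2 signal of 6.51 on Control replicate 2 lay below the 9.17 to 10.15 of the other 4 arrays, as B cell markers did.

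Among factors of the B cell programme that oppose plasma cell formation, 1 gene, Bcl6, had the smallest adjusted p of these lists. Bcl6, the germinal centre repressor that holds down Prdm1, had a log2 signal of 10.74 and 10.80 in Control and 11.67, 11.78 and 11.54 in NT-3N. Every NT-3N mouse lay above both controls, as in 13.5% of all features. The log2 difference of Bcl6 was 0.89 with a standard error of 0.10 (limma adjusted p = 0.054). This missed the threshold here and passed it in 5 of 16 alternatives, with adjusted p from 0.017 to 0.49. Bcl6 is also expressed outside B cells. Id3 had a log2 difference of -0.59 (adjusted p = 0.087, past the threshold in 1 of 16 alternatives), Spib 0.39 (0.72), Bach2 0.29 (0.77) and Pax5 -0.23 (0.73), all by limma. In the list of 10, 6 were higher and 4 lower, with a median of 0.050 and 0 called. At an unadjusted p under 0.05 there was 1 in each direction, beside 4.95% of all features higher and 4.67% lower. Cd79a, a B cell receptor subunit from the marker list, had a log2 difference of 0.73 (limma adjusted p = 0.69), with 5.05 on Control replicate 2 and 6.56 to 6.91 on the other arrays.

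**Figure D4:**
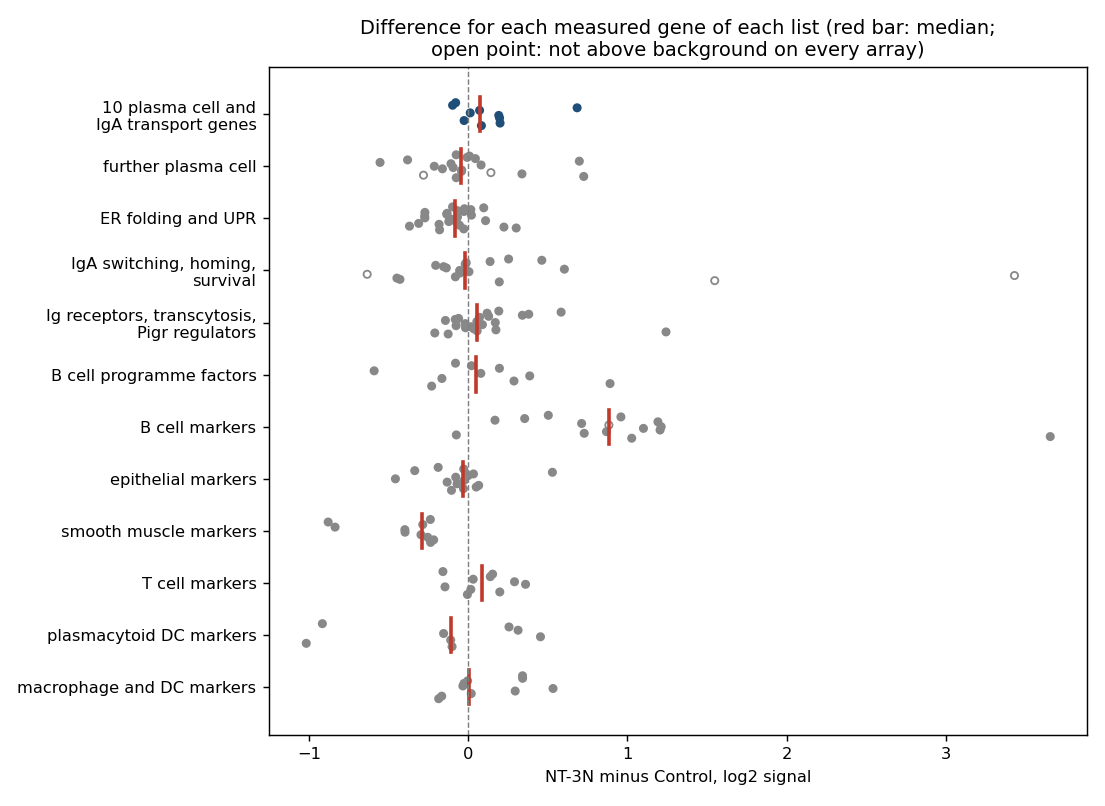
Log2 difference, NT-3N minus Control (x axis), for each measured gene of the 10 plasma cell and IgA transport genes (blue), the related lists and the cell type markers (grey), with the median of each list as a red bar and open points for genes not well above background on every array. The median of the 10 genes is 0.077, between -0.29 for smooth muscle markers and 0.88 for B cell markers.

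The genes whose profile over the 5 arrays was most like that of Jchain were Stac2, Tmem273, Spry4, Ccn1 and Bmp6, with a root mean square difference of 0.052 to 0.084 on the log2 scale after each gene was centred, among 16733 genes with a symbol and above background on all arrays. For Pigr they were Prlhr, Pls1, Dnph1, Gm35472 and Lrfn1, with 0.012 to 0.018. None of the 10 genes was among either set. With 5 arrays and so many candidates, close profiles are a description only.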

How the data were processed

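Single-colour Agilent mouse arrays measured whole-colon RNA of 2 Control and 3 NT-3N mice. Spots were read by the authors with Agilent Feature Extraction 11.0.1.1, per the submitters' processing notes. In the deposited array files each spot has a background-subtracted intensity, not scaled between arrays. The deposited log2 table of 37380 probes holds log-transformed, quantile-normalized processed signal, and correlated with the values computed here at 0.999983 or above on each array. The array count, 5, limits the precision of every value.

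Control spots and outlier spots (69 to 184 of 59305 per array) were left out. Processed signal was log2-transformed, averaged per probe and quantile-normalized. Probes well above background on at least 2 arrays, with values on both Control and at least 2 NT-3N arrays, were kept. Accessions without version were matched to RefSeq symbols of GRCm38.p6 (32994 of 56605 probes), and the brightest probe stood for a gene. Older list symbols were updated through RefSeq synonyms. The comparison used limma 3.58.1 (R 4.3.3), with lmFit, an eBayes fit that follows intensity, two-sided p-values (Benjamini-Hochberg over all 32917 features). Every probe was fitted the same way.

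The study's local-pooled-error test was rewritten here for use as an alternative, so it may differ in detail from the authors' software. Both tests were run on 5 simulated data sets of Control against NT-3N with 32910 features. There limma found 29.8% of the 2-fold and 74.4% of the 4-fold changes, with 3.7% of calls false. The local-pooled-error test found 36.8% and 85%, with 52.7% of calls false. The simulated spreads were drawn from limma's own fitted variance model, which favours limma, and features were independent of each other. Shifts shared by many genes of an array were absent. These shares therefore do not give the false calls of either test in the real arrays.

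The members and gene lists were chosen with earlier results of these data known. The genes named were the 10 members, the genes of the related lists with an adjusted p under 0.05 (none), the 3 of each list with the widest difference among those above background on all arrays, a set of 19 fixed by name, and the 5 nearest profiles of Jchain and Pigr. Itga4, Adgre1, C1qa, C1qb, C1qc, Cdh1, Krt18, Krt19, Cd22, Ms4a1 and Myd88 were named after their values were seen. Plasmacytoid dendritic cell markers had a median log2 difference of -0.11, T cell markers 0.085, macrophage and dendritic cell markers 0.0076 and epithelial markers -0.030. The alternatives covered scaling, background correction, the deposited values, filters, the variance model, array weights, the replicate block, how probes of a gene were combined, the test, and each array left out.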

Additional observations from a re-analysis of the deposited data

How the results depend on the processing

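The count of 0 members called held under all 16 alternatives. The median log2 difference of the 10 genes stayed within 1 SD of its spread between mice (0.29), with 0.27 under array weights and, without each array in turn, from -0.060 without NT-3N replicate 2 to 0.31 without NT-3N replicate 1. The sign turned under at least 1 alternative for 8 of the 10 genes. With array weights Sdc1 had a log2 difference of 0.024 and Derl3 0.15. The local-pooled-error test gave Sdc1 0.010 and Mzb1 -0.21. With the replicate block Pigr had 0.0064, the same value as without NT-3N replicate 3. Without each array in turn the difference ranged from -0.22 to 0.40 for Jchain, -0.41 to 0.32 for Mzb1, -0.46 to 0.18 for Derl3, -0.15 to 0.35 for Tnfrsf17, -0.0011 to 0.40 for Irf4, -0.075 to 0.39 for Prdm1, -0.078 to 0.044 for Sdc1 and -0.20 to 0.0064 for Pigr. Xbp1 and Pou2af1 kept their sign.

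The 47 features called overall were 2 with no filter, 2 without the intensity trend, 167 with array weights, 348 with the local-pooled-error test and 0 with the replicate block, and between 0 and 116 without each array in turn (116 without Control replicate 2, 0 without NT-3N replicate 3). Of the related lists, 0 genes called became 1 with the deposited values, 1 with the stricter filter (above background on every array), 2 with robust variance, 5 with array weights, 5 with the local-pooled-error test, and 0 to 2 without each array in turn (2, Il6 and Tnfrsf1a, without NT-3N replicate 1). Bcl6 was among them in the first 5 of these. Il6 was among those with array weights, with the local-pooled-error test and without NT-3N replicate 1. It passed the filter on dim probes through the NT-3N arrays alone, so these calls of Il6 cannot be read as support. What moved the counts was not tested. Nothing in the labels pairs mice by replicate number. For the 2 shared numbers the residuals of the mice correlated at 0.13 and 0.036. The residuals of the 2 Control mice mirror each other, so these values are not separate checks and cannot decide whether mice were paired. With the replicate block 2488 features had an unadjusted p under 0.05. Number 3 occurs in NT-3N alone, so the block takes NT-3N replicate 3 out of the difference. Its log2 differences for the 10 genes therefore equal those without that array, and the block is no separate check on them.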
